A study of Mus musculus with 20 samples.

Results

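The genes described here encode the receptors through which neurons, muscle fibres and gland cells sense neurotransmitters: the ionotropic and metabotropic receptors for glutamate, the GABA-A receptors, the nicotinic and muscarinic acetylcholine receptors, and the receptors for serotonin, dopamine and noradrenaline. Members were chosen by a rule on gene symbols, from the probe sets that the array's annotation assigns to a single gene. No measured value is part of that rule, but it was set with earlier results of these data known. The rule found 49 genes, read by 61 probe sets, among 8251 genes with a symbol of their own and 12422 probe sets that are not controls. By class these were 4 AMPA, 3 kainate, 4 NMDA, 1 delta and 1 metabotropic glutamate receptor genes, 10 GABA-A, 8 nicotinic and 2 muscarinic genes, and 11 serotonin, 3 dopamine and 2 alpha adrenoceptor genes. For the 8 genes with several probe sets, the probe set with the highest mean over all arrays stands for the gene, and the others are given where they differ.

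The series, on sleep apnea and glucose metabolism, measured total RNA of mice on 20 short-oligonucleotide arrays, 1 sample per array. Brain, heart, lung and skeletal muscle of C57BL-6J mice aged 20 weeks gave 12 arrays, with 1 array per tissue for each of 3 conditions: control (neither hypoxia nor sleep fragmentation), sleep fragmentation, and hypoxia. Subcutaneous adipose tissue gave the other 8, in groups of 2 titled Con or Glucose and Hyp or NonHyp. These came from mice aged 12 weeks, C57BL-6J and C57BL-6J-Lep, the latter carrying a mutation of the leptin gene and known for obesity, but the labels do not say which array held which strain or what Con and Glucose mean. The Hyp mice breathed air whose oxygen fell from 20.9% to 5% within 30 s and returned to 20% within 30 s. Exposure lasted 5 days, 16 hours in each, and the NonHyp mice received room air in the same rhythm. No label says whether arrays of a group held separate animals or pools, so p-values measure the spread between arrays, which may be technical, and the number of arrays limits the precision. With 1 array per tissue and condition, the 3 conditions of a tissue served as its replicates on these 12 arrays. The spread there is what remained after additive terms for tissue and condition, not a spread within a group.

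Glutamate opens AMPA, kainate and NMDA channels at most excitatory synapses, whereas GABA opens the chloride channel of GABA-A receptors, and both families are built from subunits that neurons of different brain regions combine differently. Acetylcholine acts through nicotinic channels, which at the nerve-muscle junction are made of the subunits encoded by Chrna1, Chrnb1, Chrnd and Chrne (Chrng before birth), and through muscarinic receptors, which couple to G proteins. Serotonin, dopamine and noradrenaline act almost wholly through G protein-coupled receptors, and Htr3a encodes the exception, a channel.

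Levels are log2 values of the deposited intensity. On the panel of 12 arrays an offset of 97.7 was added first, and on the adipose arrays lower values were set to it, so that 6.61 is their lowest level, called the floor. Levels of different probe sets cannot be set against each other, and only differences between arrays for the same probe set are compared. The mean intensity without the extreme 2% of probe sets on either side was close to 800 on 19 arrays and 2670 on the brain hypoxia array. The 12 arrays were therefore quantile normalized together. Of the markers of each labelled tissue, 10 of 10 neuron, 6 of 8 cardiac muscle, 7 of 10 skeletal muscle and 3 of 5 lung epithelium genes were highest in that tissue, with Myl2 and Actc1, Acta1, Myh2 and Pvalb, and Sftpc and Scgb1a1 as the exceptions.

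The first comparison set brain against the mean of heart, lung and muscle. The channels for glutamate and GABA showed the widest differences among the genes that passed: Gria2 was 34.2-fold, Gabrb1 15.7-fold, Gabra6 10.8-fold, Gria1 8.18-fold and Gabrd 5.15-fold higher in brain. Serotonin and dopamine receptor genes did not follow, since none of the 9 tested passed in either direction. Of the 49 genes, 26 passed the filter on low values, which keeps a probe set whose highest tissue mean lies above the 40th percentile. Among these 26, 12 were higher and 1 was lower in brain at an adjusted p of 0.05 (limma, adjusted over all 7453 probe sets tested). Over all probe sets tested, 23.5% were higher and 26.0% lower. A gene can pass that filter only through the tissue in which it is high, so all 49 were also fitted without it. In the unfiltered fit 19 of 49 were higher and 2 lower, against 16.1% and 17.0% of all 12422 probe sets. In 13 of the 49 every brain array lay above all 9 other arrays and in 1 below, against 9.57% and 6.30% of all probe sets. The median log2 difference of the 49 was 0.30, beside -0.07 over all probe sets. In bulk tissue, fewer cells of a type and less RNA per cell cannot be told apart.

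**Figure D1:**
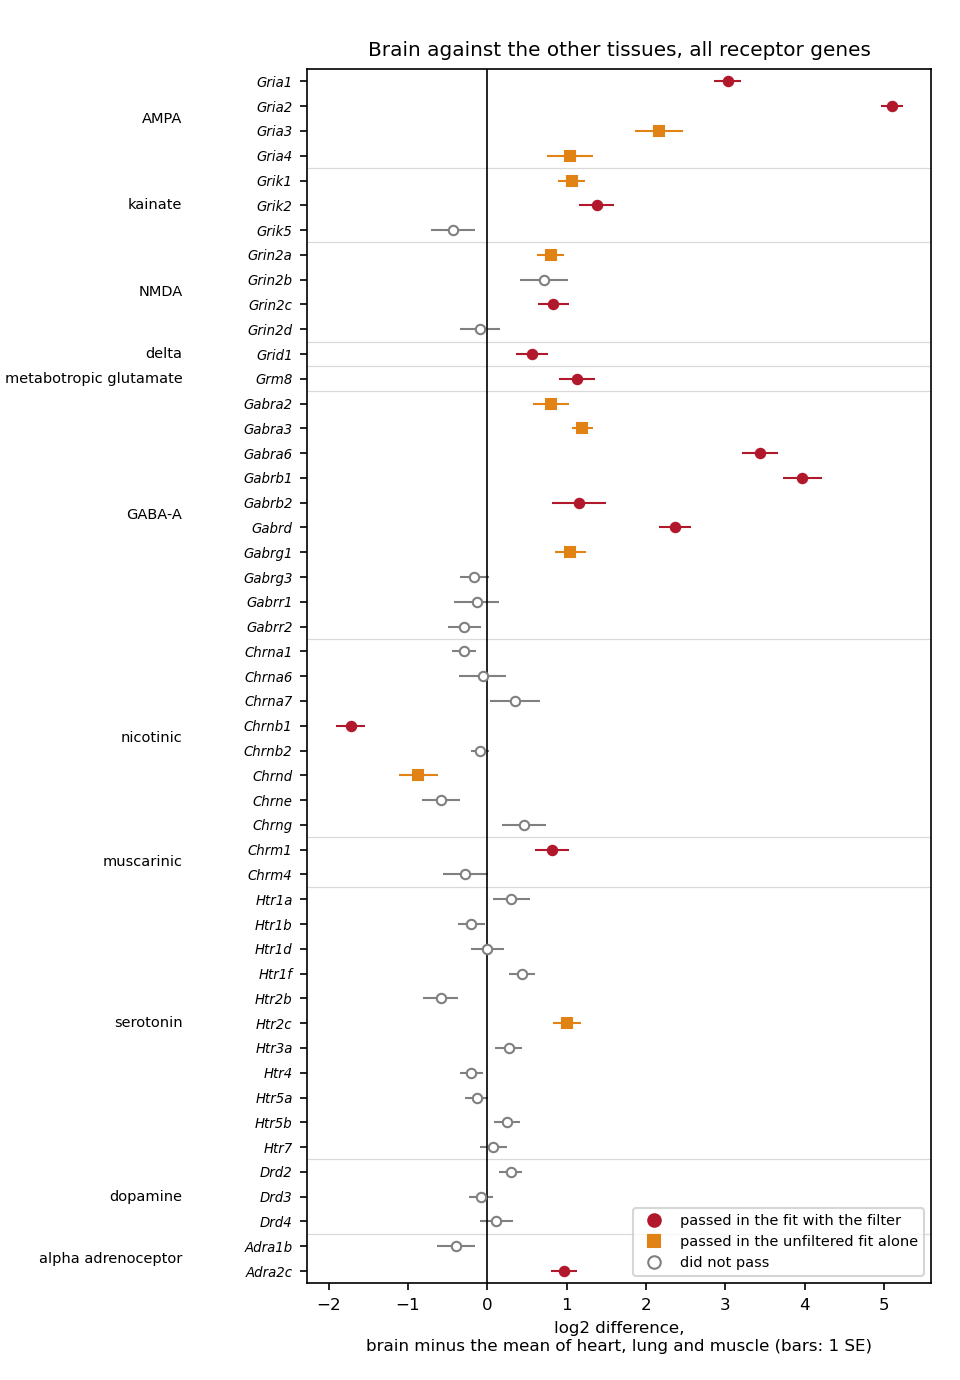
Log2 difference between brain and the mean of heart, lung and muscle (x axis) for the 49 receptor genes (y axis, by class), with 1 SE of the unfiltered fit as bars; filled circles passed in the fit with the filter, squares passed in the unfiltered fit alone and open circles did not pass. Gria2 lies farthest to the right at 5.10, and Chrnb1 farthest to the left at -1.72.

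All 4 AMPA receptor genes were higher in brain in at least the unfiltered fit. Gria2 encodes the subunit whose edited RNA makes AMPA channels nearly impermeable to calcium. Its level was 13.19, 13.37 and 13.61 on the control, fragmentation and hypoxia brain arrays and 7.30 to 9.10 on the 9 others, a difference of 5.10 ± 0.14 (SE; adjusted p = 7.1e-09). Of its other 3 probe sets, 92945_at and 92946_f_at gave differences of 4.40 and 3.71, and 162076_r_at lay between 6.63 and 7.06 on all 12 arrays. Gria1, whose subunit is inserted into synapses during potentiation, was at 10.88, 11.31 and 11.43 in brain against 7.57 to 8.88 elsewhere (3.03 ± 0.17, adjusted p = 2.8e-07). Its other probe set gave 4.36. Gria3 and Gria4 did not reach the filter. In the unfiltered fit Gria3 was higher by 2.16 ± 0.30 (adjusted p = 0.00035), with brain levels of 8.23, 9.58 and 9.87 above 6.75 to 7.82 elsewhere. Gria4 was higher by 1.05 ± 0.29 (adjusted p = 0.0185), and its lowest brain array, at 8.51, was level with the heart control array.

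Kainate, NMDA, delta and metabotropic glutamate receptor genes differed less. Grik2, a kainate receptor subunit, was at 9.31, 9.38 and 9.94 in brain and 7.67 to 9.09 elsewhere (1.38 ± 0.22, adjusted p = 0.00041). Grin2c, the NMDA subunit typical of mature cerebellar granule cells, was at 11.02, 10.48 and 10.21 in brain against 9.22 to 10.42, with the muscle fragmentation array inside the brain range (0.83 ± 0.19, adjusted p = 0.0041), and without the brain control array its difference was 0.52. Grm8, an inhibitory receptor on nerve endings, was at 9.23, 9.60 and 9.52 against 6.92 to 8.72 (1.13 ± 0.23, adjusted p = 0.0021). These ranges did not overlap for Grik2 and Grm8. Grid1, of the delta family, passed narrowly (0.57 ± 0.20, adjusted p = 0.040) and overlapped with muscle. Its adjusted p was above 0.05 without the filter (0.059) and in 8 of the 12 fits that each left out 1 array. Grik1 (1.06 ± 0.17) and Grin2a (0.80 ± 0.17), both below the filter, were higher in the unfiltered fit at adjusted p of 0.00081 and 0.0051. Grin2b and Grin2d did not pass, with differences of 0.71 and -0.09.

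The 2 probe sets of Grik5, a kainate subunit that needs a partner to form channels, disagreed. The probe set with the higher mean, 162074_r_at, was at 9.13 to 10.46 in brain and 9.96 to 10.88 elsewhere, a difference of -0.44 that did not pass. The other, 104409_at, was at 10.06 to 10.50 in brain and 8.17 to 9.04 elsewhere, a difference of 1.71 ± 0.16 (adjusted p = 7.8e-06). Which of them follows the transcript was not tested, and the Grik5 level is uncertain here.

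Most GABA-A receptor genes were higher in brain. Gabrb1, which encodes a beta subunit at the GABA binding site, was at 11.24, 12.06 and 11.84 in brain against 7.22 to 8.47 (3.97 ± 0.24, adjusted p = 4.6e-07). Gabra6, found almost wholly in cerebellar granule cells, was at 12.30, 11.22 and 12.26 against 7.26 to 9.33 (3.43 ± 0.23, adjusted p = 8.1e-07). Gabrd, whose subunit forms receptors outside the synapse that give a steady inhibition, was at 10.28, 9.15 and 9.69 against 7.06 to 7.69 (2.36 ± 0.20, adjusted p = 4.1e-06). All brain arrays lay above all others for these 3 genes. Gabrb2 was higher by 1.15 ± 0.34 (adjusted p = 0.0158) but overlapped with muscle and heart, and without the brain hypoxia array its difference was 0.76 with an adjusted p of 0.126. Below the filter, Gabra3 (1.2), Gabrg1 (1.05) and Gabra2 (0.80) were higher in the unfiltered fit. Gabrg3 and the rho subunit genes Gabrr1 and Gabrr2, the latter known from the retina, did not pass. In all, 7 of the 10 GABA-A genes were higher in the unfiltered fit.

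Among receptors for acetylcholine and the monoamines, Chrm1 and Adra2c were higher in brain in both fits and Htr2c in the unfiltered fit. Chrm1, the main muscarinic receptor of cortex and hippocampus, was higher by 0.82 ± 0.21 (adjusted p = 0.0089), with brain at 9.03 to 9.49 and the other arrays at 7.68 to 9.16. Adra2c, an alpha adrenoceptor that curbs noradrenaline release, was higher by 0.96 ± 0.17 (adjusted p = 0.0007), with levels of 10.28 to 10.79 in brain and 10.01 to 10.52 in muscle. Htr2c, the serotonin receptor of choroid plexus and of hypothalamic neurons that restrain feeding, was below the filter. It was at 7.38, 7.60 and 8.39 on the brain arrays and 6.71 to 6.86 on all others, higher by 1.01 ± 0.17 in the unfiltered fit (adjusted p = 0.0014). The other 10 serotonin genes and all 3 dopamine genes did not pass in that fit. Drd2, abundant in the striatum, differed by 0.29 ± 0.15 in that fit (adjusted p = 0.17). The 8 nicotinic genes included none higher in brain. Chrnb1 was lower in brain by 1.72 ± 0.19 on the log2 scale (adjusted p = 3.0e-05), at 7.08 to 7.13 on its 3 arrays and 7.33 to 9.81 elsewhere. Chrnd was lower by 0.87 ± 0.24 on the log2 scale in the unfiltered fit (adjusted p = 0.0192).

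**Figure D2:**
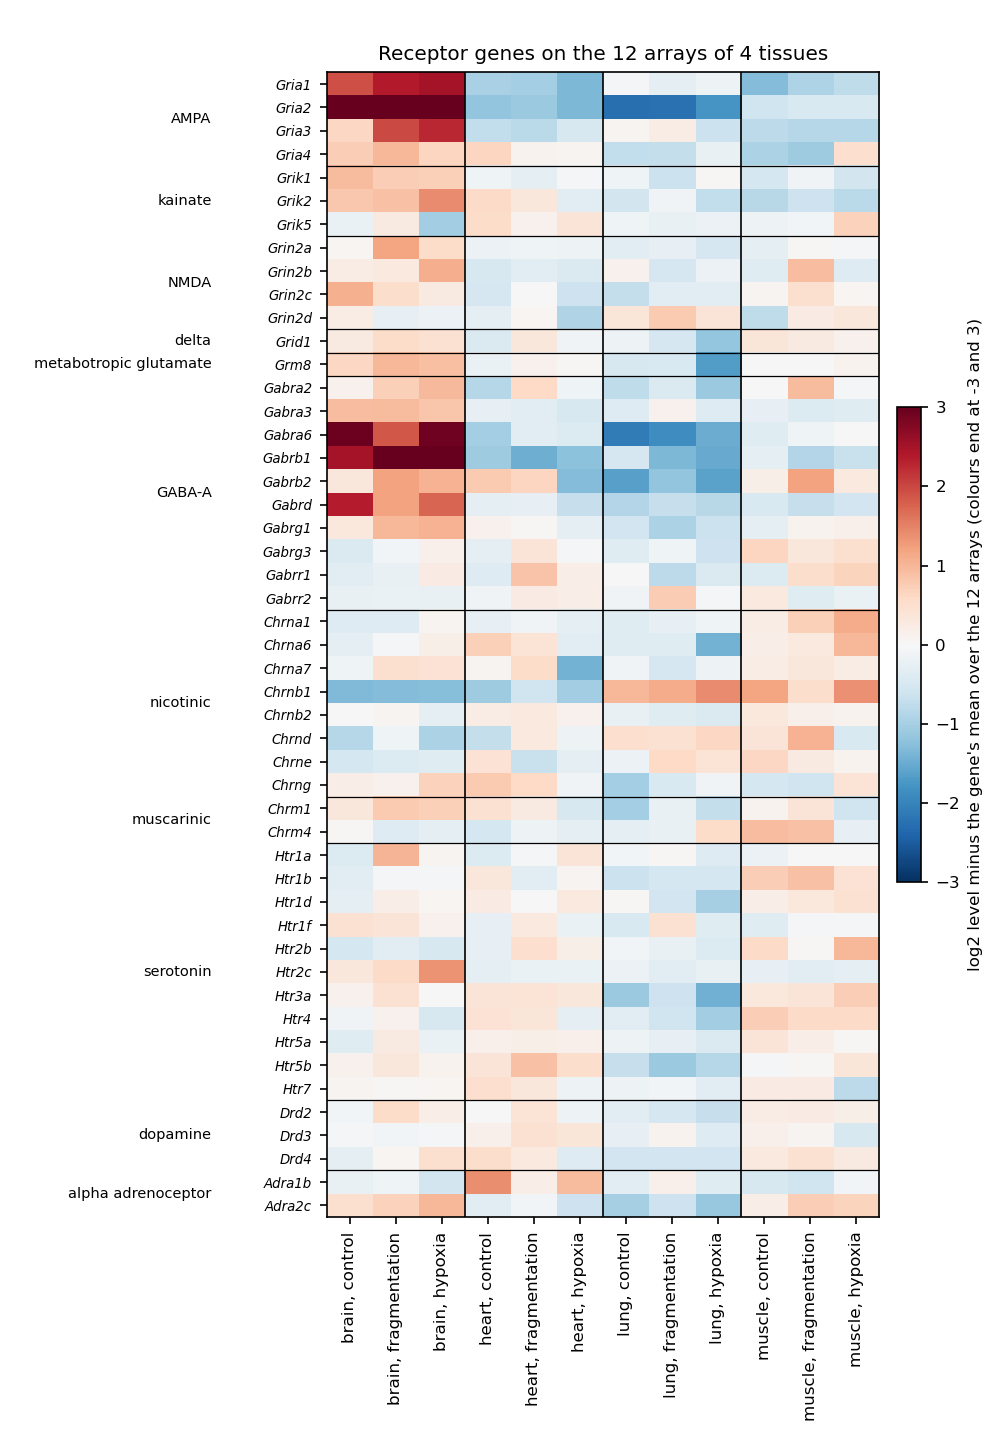
Level of each of the 49 receptor genes (rows, by class) on the 12 arrays of brain, heart, lung and muscle (columns), as the log2 level minus the gene's own mean over the 12 arrays; red is above and blue below that mean, and colours end at -3 and 3. Gria1, Gria2, Gabra6, Gabrb1 and Gabrd are red on the 3 brain arrays, Chrnb1 is red on the lung and muscle arrays, and most serotonin and dopamine genes stay pale.

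The machinery around the receptors was read from lists of textbook genes. Over the genes of each list that passed the filter, 9 of 14 receptor scaffolds and anchors were higher in brain and 1 lower, led by Dlg4, the core scaffold of excitatory synapses (2.75 ± 0.29), Cacng2, which carries AMPA receptors to the membrane (2.62 ± 0.17), Nsf (2.61) and Nptx1 (2.46). Transmitter transporters were higher in 5 of 6, led by the vesicular GABA transporter Slc32a1 (5.46 ± 0.14) and the Purkinje cell glutamate transporter Slc1a6 (3.13). Of 6 synthesis enzymes, 3 were higher, led by Gad1, which makes GABA (5.58 ± 0.32), and Hdc was called lower (-0.50). Hdc, which makes histamine, was at 7.84 to 8.27 in brain, above heart and muscle (6.96 to 7.52) and below lung (10.99 to 11.21). Both breakdown enzymes that passed the filter, Ache (2.81) and Maoa (0.68), were higher. Desensitisation and G protein genes went both ways, with 7 of 15 higher, Gnai1 at the top (4.04), and 4 lower, among them Grk5 (-0.90) and Adcy6 (-0.77). Gnas, also called lower, was at 12.00 and 13.20 on the control and fragmentation brain arrays and at 8.17 on the hypoxia array, against 11.57 to 13.50 elsewhere (difference -2.01), the hypoxia array lying far below the rest. Over all probe sets tested, 23.5% were higher and 26.0% lower. The medians of these 5 lists ran from 0.32 to 1.74, beside -0.08 over all probe sets tested. Without the filter, 9 of 17 scaffolds were higher and 1 lower, 5 of 10 transporters and 2 of 3 breakdown enzymes were higher, 4 of 8 synthesis enzymes were higher and 1 lower, and 8 of 18 desensitisation and G protein genes were higher and 3 lower, against 16.1% and 17.0% of all probe sets. The medians were then 0.31 to 0.70, beside -0.07.

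Heart, lung and muscle were each set against the mean of the other 3 tissues in the same fit. Because brain is part of that mean, genes high in brain appear lower in each of the other tissues. In heart 2 of 26 genes were higher and 6 lower, against 19.2% and 19.5% of all probe sets tested. The unfiltered fit also gave 2 of 49 higher and 6 lower, against 11.9% and 12.1%. Htr5b was higher by 0.80 ± 0.16 (adjusted p = 0.0034), at 9.44 to 9.92 in heart and 7.92 to 9.41 elsewhere, and Htr3a by 0.50 ± 0.17 (adjusted p = 0.040), with brain and muscle arrays as high. The Htr3a adjusted p was above 0.05 without the filter (0.058), with values as deposited (0.69) and in 9 of the 12 fits that left out 1 array. Adra1b, an alpha adrenoceptor through which noradrenaline drives growth and contraction of heart muscle, was below the filter. It stood at 9.47, 8.28 and 9.01 on the heart arrays and 7.48 to 8.23 on the others, higher by 1.14 ± 0.24 in the unfiltered fit (adjusted p = 0.0081). The 6 lower genes in the fit with the filter were Gria1, Gria2, Gabrb1, Gabra6, Chrnb1 and Adra2c, and all but Chrnb1 were higher in brain. The Adra2c difference (-0.46 ± 0.17, adjusted p = 0.048) did not pass without the filter (0.068), with values as deposited (0.35) or in 9 of the 12 fits that left out 1 array, and it was -0.29 without the heart hypoxia array.

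In lung most tested receptor genes were lower. Of 26, 19 were lower and 2 higher, against 33.8% and 28.1% of all probe sets, with a median of -0.76 beside -0.10. In the unfiltered fit 24 of 49 were lower and 2 higher, against 25.1% and 20.9%. Every class with a tested gene, other than the nicotinic genes, had at least 1 lower member. Among genes that were not higher in brain, Htr3a was lower by 1.41 ± 0.17 on the log2 scale, at 7.99 to 8.80 in lung and 9.44 to 10.15 elsewhere, and Htr5b was lower by 1.2 ± 0.16, at 7.92 to 8.34 against at least 9.0 elsewhere. The dopamine receptor genes Drd4 (-0.77) and Drd2 (-0.69) were also lower, with no overlap. Chrnb1 (1.56 ± 0.19, adjusted p = 6.0e-05) and Grin2d (0.67 ± 0.25, adjusted p = 0.039) were the 2 higher genes. The Grin2d adjusted p was above 0.05 without the filter (0.054) and in 5 of the 11 fits that left out 1 array and still tested it. In the unfiltered fit Chrnd was higher by 0.70 ± 0.24 (adjusted p = 0.0385), beside Chrnb1.

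Skeletal muscle carries the one receptor of this collection whose place is the nerve-muscle junction. In muscle 6 of 26 tested genes were higher and 5 lower, against 24.9% and 27.6% of all probe sets tested, and 8 of 49 in each direction in the unfiltered fit, against 18.6% and 19.2%. Chrnb1, the beta subunit of the muscle receptor, was at 9.58, 8.94 and 9.78 in muscle and at 7.08 to 7.80 in brain and heart (1.37 ± 0.19, adjusted p = 0.00024). Lung, at 9.41 to 9.81, overlapped with muscle, so the gene was high in both tissues. Chrna1, which carries the acetylcholine binding site, did not reach the filter. It was at 7.57, 8.06 and 8.45 on the muscle arrays and 6.97 to 7.42 on the 9 others, higher by 0.90 ± 0.15 in the unfiltered fit (adjusted p = 0.0015). Every muscle array was thus above every other array for Chrna1.

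The remaining junction subunits depended on the probe set. For Chrne, the adult subunit, 92965_at was at 9.95, 9.44 and 9.94 in muscle and at most 9.44 elsewhere, on the heart control array (1.21 ± 0.31, adjusted p = 0.0089). Its probe set with the highest mean, 92967_r_at, differed by 0.44 ± 0.24 and did not pass (adjusted p = 0.18). For Chrng, the fetal subunit, 95639_at was at 8.86, 9.34 and 9.04 in muscle and 7.66 to 8.66 elsewhere (0.88 ± 0.15, adjusted p = 0.0020 in the unfiltered fit), whereas 161215_at, with the higher mean, was at 7.80 to 8.83 in muscle and up to 9.18 in heart (-0.32, adjusted p = 0.40). Chrnd, the delta subunit, had 1 probe set, at 8.55, 9.21 and 7.69 in muscle and 8.62 to 8.77 in lung, and did not pass in muscle (0.43 ± 0.24). Thus Chrnb1, and Chrna1 in the unfiltered fit, were higher in muscle on their only probe set, and Chrnd was not. Chrne and Chrng were higher only on a probe set other than the one that stands for the gene. Single probe sets were called higher in muscle in 24.9% with the filter and 18.6% without it. No share was counted for a call on any of several probe sets. The arrays labelled muscle had summed intensities of 59477 to 64720 over 10 skeletal muscle fibre genes, and the lung hypoxia array 18445, above the other lung arrays at 4116 and 5741. The part of muscle fibre RNA in the lung levels of Chrnb1 was not tested. Chrnb1 was at 9.41 on the lung control array, which had the lowest fibre sum.

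**Figure D3:**
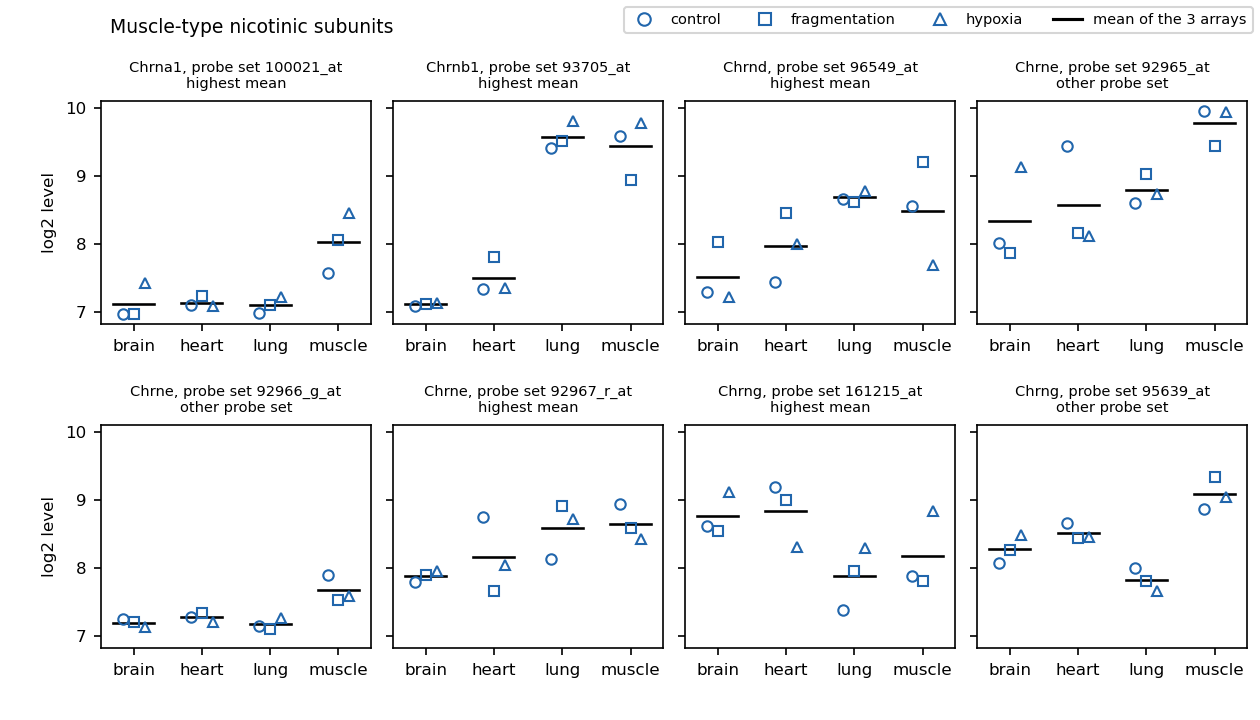
Log2 levels (y axis) of the 8 probe sets for Chrna1, Chrnb1, Chrnd, Chrne and Chrng in brain, heart, lung and muscle (x axis), with 1 point per array (circle control, square fragmentation, triangle hypoxia) and a bar at the mean of the 3. Muscle lies highest for Chrna1, for Chrne probe sets 92965_at and 92966_g_at and for Chrng probe set 95639_at, and lung is level with muscle for Chrnb1.

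RefSeq (GRCm38.p6) gave a promoter window, 250 bases before to 50 after the gene start, for 36 of the 49 genes, as 44 windows in all. Myogenic factors such as MyoD and myogenin bind E-boxes, and E-boxes in the promoters of the muscle receptor genes are textbook examples of such sites. The letters CAGCTG, which read the same on both strands, were in 5355 of 32851 promoters (16.3%) and in 6 of the 44 receptor windows. Those 6 belonged to Chrna1, Chrne and Chrng, and to Adra2c, Htr2b and Htr5a. Chrnb1 and Chrnd were not among the genes with a match. The 250 bases before the start are shown for the 3 junction genes, 5′ to 3′, with the matches in capitals: Chrna1 on the minus strand (chr2:73580339-73580588), Chrne on the minus strand (chr11:70619195-70619444) and Chrng on the plus strand (chr1:87205561-87205810), all from RefSeq GRCm38.p6. A match is a description of letters, not of binding. The matches start 92 and 44 bases before the gene start in Chrna1, 138 in Chrne, and 155 and 132 in Chrng.
Chrna1: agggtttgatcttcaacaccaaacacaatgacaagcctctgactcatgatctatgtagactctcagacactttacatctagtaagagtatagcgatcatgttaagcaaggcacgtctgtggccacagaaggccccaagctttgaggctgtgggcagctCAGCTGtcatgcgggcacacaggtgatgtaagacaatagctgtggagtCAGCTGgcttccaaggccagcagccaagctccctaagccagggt
Chrne: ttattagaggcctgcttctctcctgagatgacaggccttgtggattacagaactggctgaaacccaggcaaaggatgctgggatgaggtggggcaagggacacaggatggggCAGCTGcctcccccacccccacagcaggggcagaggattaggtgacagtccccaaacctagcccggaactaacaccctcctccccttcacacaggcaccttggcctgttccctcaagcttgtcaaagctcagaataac
Chrng: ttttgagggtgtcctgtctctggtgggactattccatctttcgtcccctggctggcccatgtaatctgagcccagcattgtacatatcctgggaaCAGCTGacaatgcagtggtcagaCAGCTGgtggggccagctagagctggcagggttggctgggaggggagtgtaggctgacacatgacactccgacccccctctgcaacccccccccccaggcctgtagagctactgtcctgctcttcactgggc

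Outside the nicotinic family, the serotonin receptor genes Htr1b and Htr4 were higher in muscle. Htr1b, which inhibits cyclic AMP formation, was at 10.11, 10.25 and 9.79 in muscle and 8.73 to 9.70 elsewhere (0.91 ± 0.17, adjusted p = 0.0015). Htr4, which raises cyclic AMP, was at 11.05, 10.90 and 10.89 against 9.27 to 10.75 (0.84 ± 0.14, adjusted p = 0.00091). Neither range overlapped. The other 2 probe sets of Htr4 did not pass in muscle, with differences of 0.09 and -0.27. Htr3a (0.64), Gabrg3 (0.64) and Adra2c (0.71) were higher too but overlapped with other tissues, and without the muscle hypoxia array Htr3a did not pass (0.41, adjusted p = 0.092). The 5 lower genes, Gria1, Gria2, Grik2, Gabrb1 and Gabrd, were all higher in brain. With the values as deposited, in which the brain hypoxia array is not scaled to the others, Chrnb1 alone was still called higher in muscle. That setting also changed the balance over all probe sets: of the calls in brain 82.9% were higher, in place of 47.5%, in heart 30.4% in place of 49.6% and in muscle 23.6% in place of 47.5%.

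The next comparisons asked whether sleep fragmentation or hypoxia changed the receptors in all 4 tissues together. Both are set against the same control arrays. None of the 26 tested genes passed for fragmentation against control, hypoxia against control or hypoxia against fragmentation, where 0% of all 7453 probe sets were called by limma in each. At an unadjusted p under 0.05 the counts were 0, 2 and 4 of 26, beside 335, 374 and 750 of all probe sets. The 2 in hypoxia against control were the serotonin receptor genes Htr4 (-0.49 ± 0.15, adjusted p = 0.91) and Htr7 (-0.47 ± 0.19, adjusted p = 0.91), both of which raise cyclic AMP. Htr4 was at 10.21, 10.75, 9.97 and 11.05 on the control arrays of brain, heart, lung and muscle, and at 9.83, 10.05, 9.27 and 10.89 on the hypoxia arrays, lower in each tissue. That was probe set 95322_g_at. Its probe set 95323_at was higher with hypoxia in brain (8.46 to 8.69), heart (7.99 to 9.19) and muscle (7.97 to 8.02). In lung 95323_at was lower (7.85 to 7.61). Against fragmentation, Gabrb2 (-0.86), Chrm1 (-0.58), Htr7 (-0.43) and Htr4 (-0.42) had the smallest p, with adjusted p of 0.46 to 0.48.

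Signs that repeated across the tissues were counted without a test, on the probe set that stands for each gene. No size limit was set, so nearly equal levels count as well. With fragmentation Chrna1 in brain went from 6.9697 to 6.97, and with hypoxia Chrnb1 in heart went from 7.334 to 7.352. With fragmentation, 7 of 49 genes were higher than control in all 4 tissues and 0 lower, where 6.50% and 7.52% of all probe sets did so. The 7 were Gria2, Grin2a, Gabra2, Chrna1, Htr1a, Htr3a and Adra2c. Of these, Adra2c had a mean difference of 0.34 ± 0.18 (adjusted p = 0.97). With hypoxia, Chrnb1 was higher in all 4 tissues and Chrnb2, Htr4 and Htr7 lower, where 6.43% and 5.71% of all probe sets did so. Between hypoxia and fragmentation, 1 of 49 genes was higher with hypoxia in all 4 tissues (Htr2c) and 10 were lower, where 9.90% and 7.53% of all probe sets did so. The 10 were Grid1, Grin2a, Grin2c, Gabrb2, Chrm1, Chrnb2, Htr1f, Htr4, Htr5a and Drd2.

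Within a tissue each condition had 1 array, so the differences that follow have no replicate check and no test, and genes 2-fold or more apart were counted. In brain, fragmentation differed from control by that much in 5 of 49 genes, where 3.83% of all probe sets did. Htr1a, the autoreceptor of serotonin neurons, was 1.42 higher on the log2 scale, Gria3 1.35 and Grin2a 1.12 higher. Gabrd was lower by 1.13 (10.28 to 9.15) and Gabra6 by 1.08 (12.30 to 11.22). Hypoxia differed from control in 2 of 49 genes (5.46% of all probe sets), Gria3 by 1.64 and Htr2c by 1.01, and from fragmentation in 2 (4.70%), Gabra6 by 1.04 and Grik5 by -1.33. Grik5 probe set 104409_at went the other way, from 10.06 with fragmentation to 10.50 with hypoxia. From control to hypoxia, Gabra6 92939_at went from 12.52 to 11.26, where 92940_s_at was at 12.30 and 12.26. Gria1 92943_at went from 11.32 to 12.69, and 92944_at from 10.88 to 11.43. Both genes lower with fragmentation, Gabra6 and Gabrd, encode subunits abundant in cerebellar granule cells. Signs of RNA quality and markers of other tissues also differed between the brain arrays. A 3′ control probe set over its 5′ counterpart is read as a sign of RNA integrity and labelling. For Actb this ratio was 0.683 on the control, 0.662 on the fragmentation and 0.0343 on the hypoxia array. For Gapdh it was 0.873, 1.09 and 1.60, so on the hypoxia array Actb was lowest and Gapdh highest. The muscle fibre genes summed to 13454 on the control and 6147 on the fragmentation array, with Acta1 at 12.89 and 8.84, and the lung gene Scgb1a1 was at 13.62 and 9.25.

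Markers of brain regions differed between these arrays too. These markers were picked from textbooks after the brain values had been seen. All 7 cerebellar genes were highest on the control array: the Purkinje cell gene Pcp2 was at 11.23, 8.84 and 8.41 on the control, fragmentation and hypoxia arrays, Car8 at 13.74, 11.83 and 12.77, and the granule cell gene Cbln1 at 12.82, 11.16 and 12.11. In the same order Gabra6 was at 12.30, 11.22 and 12.26, near its control level with hypoxia, and on probe set 92939_at at 12.52, 10.73 and 11.26. Of 8 forebrain genes, 7 were lowest on the control array, with Neurod2 as the exception: Camk2a was at 7.73, 10.62 and 10.86, Neurod6 at 7.35, 9.40 and 10.05, and Mef2c at 9.86, 11.74 and 11.37. Of the 49 receptor genes, 9 were highest on the control array, Gabra6, Gabrd and Grin2c among them, and 29 were lowest there, where 31.3% and 34.5% of all probe sets were. The part of tissue composition, other tissues and RNA quality in the receptor differences between the brain arrays was not tested, and with 1 array each it cannot be told apart from the exposures. Leaving out each array in turn, 9 to 13 genes were higher in brain than in the other tissues, and 9 without the brain hypoxia array.

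**Figure D4:**
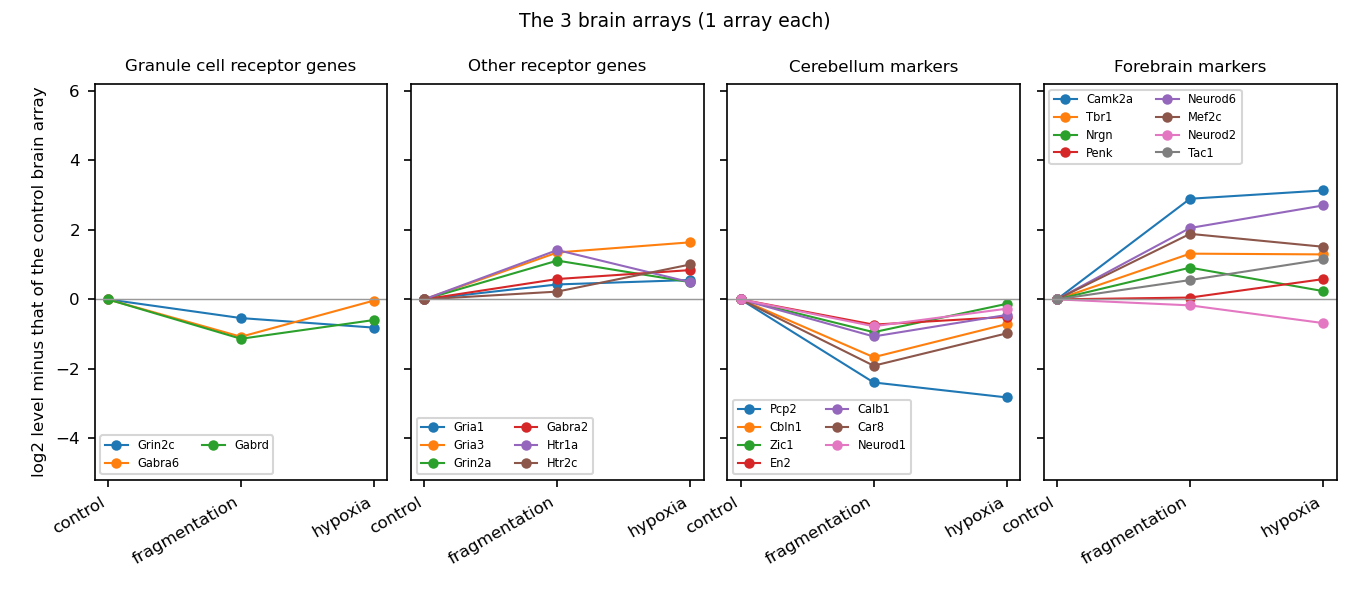
Log2 level on the control, fragmentation and hypoxia brain arrays (x axis, 1 array each) minus the level on the control array (y axis), for 3 receptor genes of cerebellar granule cells, 6 other receptor genes, 7 cerebellum markers and 8 forebrain markers. Gabra6 and Gabrd dip on the fragmentation array as the cerebellum markers do, and Gria3 lies above control on both exposure arrays as Camk2a and Neurod6 do. The 6 other receptor genes shown all lie above control on both exposure arrays. Receptor genes below control on both, such as Grin2d, Chrm4, Grik1 and Htr1f, are not among these 6.

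In heart, 5 of 49 genes were 2-fold or more apart between fragmentation and control (4.68% of all probe sets) and 3 between hypoxia and control (5.90%). Gabrb2 was lower by 2.06 with hypoxia on the log2 scale (9.91 to 7.85), Chrna7, whose homomeric channel is highly permeable to calcium, by 1.49 and Chrna6 by 1.06. With fragmentation, Gabra2 (1.45), Gabrr1 (1.24) and Chrnd (1.01) were higher, and Adra1b (-1.19) and Chrne (-1.09) lower. In lung no receptor gene was 2-fold apart with fragmentation (2.14% of all probe sets). With hypoxia 5 were, all lower (2.99%): Grm8 by 1.21, Chrna6 by 1.06, Htr1d by 1.04, Gabrb1 by 1.02 and Grid1 by 1.01. The lung hypoxia array was the one with the higher sum of muscle fibre genes. In muscle, Grin2b (1.30) and Gabrb2 (1.04) were higher with fragmentation (2 of 49, 8.11% of all probe sets). With hypoxia 5 of 49 differed (8.17%), Gria4 (1.46), Grin2d (1.10) and Gabrr1 (1.06) being higher and Chrm4 (-1.19) and Htr7 (-1.03) lower. Adipocyte genes also differed between the muscle arrays, 6 genes summing to 5756 on the control, 14841 on the fragmentation and 9416 on the hypoxia array, with Adipoq at 9.26, 12.76 and 11.69. The Gapdh 3′ to 5′ ratios were 0.0261, 0.264 and 0.0090 on these arrays, and 0.443, 1.15 and 0.136 on the heart arrays. On the control, fragmentation and hypoxia lung arrays the Actb ratios were 0.0288, 0.0635 and 0.0351, and the Gapdh ratios 0.833, 0.915 and 0.821. The part of adipocytes, muscle fibres or RNA quality in the heart, lung and muscle differences was not tested. Nor was the part of RNA quality in the differences between lung and the other tissues.

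Subcutaneous adipose tissue was read on 8 arrays. Of the 49 genes, 16 were at the floor on all 8 arrays, 21 on some and 12 on none. The 16 included Gria1, Gria3, Gria4, Gabrb2, Gabrd and Htr2c. The 12 above the floor throughout included 6 serotonin genes (Htr1a, Htr1d, Htr3a, Htr4, Htr5a and Htr7), Drd2, Drd4, Gabrg3, Chrna6, Chrnd and Chrne. These counts are for the probe set that stands for each gene. Other probe sets were at the floor more often: Chrne 92966_g_at on 8 arrays and 92965_at on 7, Htr4 95321_at on 8 and 95323_at on 4. Of 10 neuron markers, 5 to 7 were at the floor on each adipose array. Adipose and panel arrays were scaled separately and their levels are not compared. The filter on the mean level left 16 genes for testing.

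Glucose was compared with Con over 4 arrays each. Of the 16 genes tested, 1 was higher (Gabrr2) and 1 lower (Chrna1), against 4.04% and 3.54% of all 7453 probe sets. Gabrr2, a rho subunit of GABA-A receptors, was at the floor on all 4 Con arrays, and at 9.0 and 9.2 on the Glucose Hyp and 9.48 and 7.41 on the Glucose NonHyp arrays. Its level was therefore at least 4.47-fold higher with Glucose (fitted log2 difference 2.16 ± 0.43, adjusted p = 0.0274). The deposited intensities were 53.9 to 80.6 with Con and 170 to 714 with Glucose. Chrna1, the alpha subunit of the muscle receptor, was at 9.08 and 8.20 on the Con Hyp and 8.70 and 8.25 on the Con NonHyp arrays. With Glucose it was at 6.61 and 7.38 on the Hyp and 6.61 and 7.19 on the NonHyp arrays, where 6.61 is the floor, so the log2 difference of -1.61 ± 0.33 (adjusted p = 0.0287) is a lower bound in size. No Glucose array overlapped with a Con array for either gene.

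Both calls depended on the settings. The adjusted p of Gabrr2 was 0.074 to 0.090 in the fits that left out any Con array or either Glucose Hyp array, 0.15 with the offset at the 40th percentile and 0.13 without the filter. Chrna1 had adjusted p of 0.053 to 0.11 in 6 of the 8 fits without 1 array, 0.074 with the offset at the 10th percentile, 0.40 with it at the 40th and 0.10 without the filter. Within the arrays coded s2 alone, the adjusted p was 0.24 for Gabrr2 and 0.14 for Chrna1, and within those coded s4 it was 0.039 and 0.069. In the unfiltered fit, 0 of 49 genes were higher and 1, Htr4, was lower, against 1.75% and 1.32% of all probe sets. Htr4 had an adjusted p of 0.0169 there.

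Htr4 was at 10.28 and 10.44 (Hyp) and 10.57 and 10.77 (NonHyp) with Con, and at 9.65, 9.73, 9.80 and 9.71 with Glucose, a difference of -0.79 ± 0.21 (adjusted p = 0.072). Its groups did not overlap. On Htr4 probe set 95323_at they did, at 6.61 to 7.36 with Con and 6.61 to 8.20 with Glucose, and 95321_at was at the floor throughout. Chrnd was at 7.61 to 8.64 with Con and 8.64 to 9.39 with Glucose (0.92 ± 0.28, adjusted p = 0.10), the direction opposite to Chrna1. Chrng differed by -0.58 ± 0.31 (adjusted p = 0.30) and Chrne by -0.95 ± 0.62 (adjusted p = 0.40). No overlap between Glucose and Con was seen in 1 tested gene as higher and 2 as lower, against 11.4% and 8.33% of probe sets. Over all 49 genes without the filter it was 2 and 2, beside 905 and 669 of 12422 probe sets. The second higher gene was Grid1, at 6.61 to 6.98 with Con, 3 arrays being at the floor, and 7.55 to 8.59 with Glucose. Its fitted difference of 1.28 did not pass in the unfiltered fit. The Grik5 probe sets again differed: 104409_at was at 7.49 to 7.89 with Con and at the floor on all Glucose arrays, at least 2.07-fold lower (adjusted p = 0.022 in the unfiltered fit), while 162074_r_at did not pass (0.68).

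Other tissue markers differed between these arrays. The summed intensity of 5 B cell genes was 6909 to 10854 on the Con and 973 to 1850 on the Glucose arrays, and that of 7 T cell genes 5035 to 7869 and 228 to 800, with 5 or 6 of the 7 at the floor on each Glucose array. Brown adipocyte genes summed to 79386 and 3621 on Con Hyp 1 and 2, 53305 and 10078 on Con NonHyp 1 and 2, and to 1154 to 2797 on the Glucose arrays. Skeletal muscle fibre genes overlapped, at 58984 to 180512 and 15273 to 119421, and so did neuron genes, at 3020 to 5209 and 2868 to 4354. Chrna1 was at 6.61 and 7.19 on the Glucose NonHyp arrays, whose fibre sums were 15273 and 119421. On Con Hyp 2 and Con NonHyp 2, with fibre sums of 58984 and 180512, it was at 8.20 and 8.25. The part of these cell types in the receptor differences was not tested. Without both Con arrays numbered 1, which had the highest brown adipocyte sums, the differences were 2.16 for Gabrr2 and -1.28 for Chrna1, and over these fewer arrays neither passed (adjusted p = 0.22 and 0.20).

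**Figure D5:**
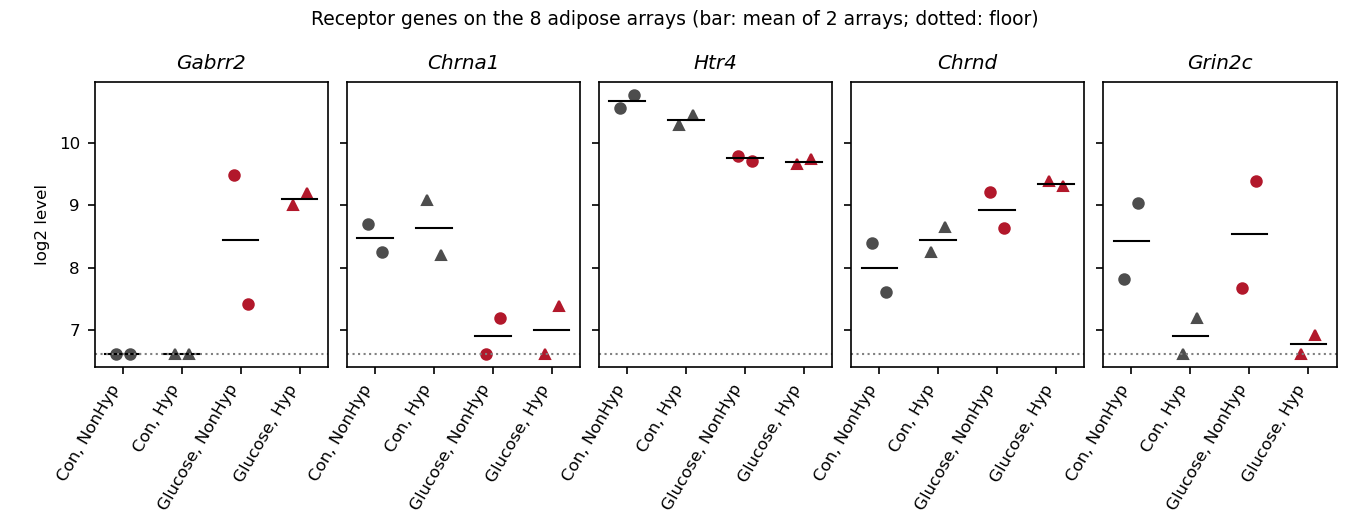
Log2 levels (y axis) of Gabrr2, Chrna1, Htr4, Chrnd and Grin2c on the 8 adipose arrays by group (x axis; grey Con, red Glucose; circles NonHyp, triangles Hyp), with a bar at the mean of each group of 2 and a dotted line at the floor. Gabrr2 sits on the floor on every Con array, Chrna1 and Htr4 lie lower on every Glucose array, and Grin2c lies lower on every Hyp array.

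Genes around the receptors in adipose tissue were mostly without a call. Maoa, which breaks down serotonin and noradrenaline, was higher with Glucose by 3.09 ± 0.30 (adjusted p = 0.0015; the only tested gene of its list). Slc6a13, a GABA and taurine transporter, was higher by 2.55 ± 0.24 (adjusted p = 0.0013; 1 of 4 transporters). Among desensitisation and G protein genes, Gnai1 was higher (1.02) and Rgs2 (-2.90) and Adcy7 (-2.22) lower, 3 of 14. No tested gene passed among 4 synthesis enzymes or 8 scaffolds. Over all probe sets tested, 4.04% were higher and 3.54% lower, and the median difference was 0.04. Without the filter, 1 of 18 desensitisation and G protein genes was higher and 0 lower, so Rgs2 and Adcy7 did not pass there. In that fit 1 of 10 transporters and 1 of 3 breakdown enzymes were higher. Over all probe sets 1.75% were then higher and 1.32% lower.

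Intermittent hypoxia changed no receptor gene past the threshold in adipose tissue. Hypoxia against non-hypoxia, the same within Con, the same within Glucose, and the difference between those effects each gave 0 calls among the 16 genes, and 0% of 7453 probe sets, by limma. At an unadjusted p under 0.05 there were 1, 1, 1 and 0 receptor genes, beside 110, 218, 159 and 246 probe sets. The gene was Grin2c each time, at 6.61 and 7.19 (Con) and 6.61 and 6.93 (Glucose) with hypoxia, and at 7.81 and 9.04 (Con) and 7.68 and 9.39 (Glucose) without. Every Hyp array was below every NonHyp array, as in 1 of the 16 genes and 13 of 7453 probe sets, with 20 probe sets the other way. The Grin2c difference was -1.65 ± 0.45 (adjusted p = 1.0), a lower bound in size because 2 Hyp arrays were at the floor.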

How the data were processed

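Each array gave 1 deposited intensity per probe set on a linear scale, per the labels. The scanner software, probe summary and scaling used by the authors are not given in the sources used here. Genes were named through the platform annotation supplied with the data, in which 10833 probe sets had 1 symbol, 396 several and 1193 none, beside 66 control probe sets that were left out. An offset of 97.7, the 20th percentile of the positive values, was added to the 12 panel arrays before log2 and set as a lowest value on the 8 adipose arrays, where 17.5% to 21.2% of values were 0 or below. The panel was quantile normalized and the adipose arrays were left as scaled.

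Tests were made with limma 3.58.1 in R 4.3.3, with p-values adjusted by Benjamini-Hochberg over all probe sets tested, and were tested on simulated data. The panel model had tissue and condition as terms over 12 arrays and left 6 residual degrees of freedom; the adipose model had 4 group means over 8 arrays and left 4. Probe sets were kept where the highest tissue mean (panel) or the mean (adipose) was above the 40th percentile, which left 7453 in each. "No overlap" means that every array of one side lay above every array of the other. Named genes were, per receptor class, up to 4 with the largest differences among those that passed in a tissue comparison, those that passed or the 5 smallest p elsewhere, up to 4 per direction that were 2-fold apart within a tissue, and the muscle nicotinic subunits. Other genes and probe sets named were chosen after their values were seen. The members and all gene lists were chosen with earlier results of these data known.

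Alternatives were the offset, the filter, the scaling, the choice of probe set, blocks for the replicate letter and the s code, and leaving out each array. Replicate letters were taken to pair adipose arrays only if same-lettered arrays deviated together. Their correlations ran from -0.14 to 0.41, so they were not taken to pair them. Beta adrenoceptor genes and Chrm2 were not analysed here.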

Additional observations from a re-analysis of the deposited data

How the results depend on the processing

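No called difference turned its direction under any alternative run. Without the filter on low values, 19 members were higher and 2 lower in brain, 8 were lower in muscle, and 0 were higher with Glucose. With the filter at the 60th percentile, the counts were 6 higher and 0 lower in brain, 0 higher in heart, 0 higher and 8 lower in lung, 2 higher and 3 lower in muscle, and 0 higher with Glucose. Fewer genes enter that stricter filter. With the panel as deposited, 0 members were higher in heart, 1 in lung and 1 in muscle, and the median of all probe sets shifted by 0.55 in brain and 0.41 between hypoxia and control. With the arrays scaled to the same median, 1 was higher in heart. With every probe set of a member counted, 11 were lower in heart and 10 in muscle. Leaving out each array in turn, the members higher and lower numbered 9 to 13 and 1 to 2 in brain, 1 to 2 and 4 to 8 in heart, 1 to 2 and 15 to 21 in lung, and 4 to 8 and 4 to 6 in muscle. The exposure and adipose hypoxia comparisons gave 0 members in every setting run.

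For Glucose against Con, 0 members were higher with the offset at the 40th percentile and 0 lower with it at the 10th. Within arrays coded s2, 0 were higher and 0 lower, and within those coded s4, 0 were lower. Without both Con arrays numbered 1, a setting chosen after seeing the data, 0 passed in either direction. Leaving out each array gave 0 to 1 in each direction: Gabrr2 was lost without any one of the 4 Con or 2 Glucose Hyp arrays, and Chrna1 without Con Hyp 1, Con NonHyp 1 or 2, Glucose Hyp 1 or 2, or Glucose NonHyp 1. With the replicate block, 1 member was higher (Gabrr2, adjusted p = 0.036) and 1 lower (Chrna1, adjusted p = 0.049), and no call changed; the same held with the s code as a block. Over all settings the adjusted p ran from 0.0035 to 0.24 for Gabrr2 and from 0.029 to 0.40 for Chrna1. The causes were not tested. With 3 arrays per tissue, 1 per condition and 2 per adipose group, the number of arrays limits all of these values, and 16 members at the floor on every adipose array have no measured level there.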
